A study of Homo sapiens with 4 samples.

Results

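The genes of cholesterol and fatty acid synthesis were examined in tongue carcinoma cells depleted of AEG-1. The set has 35 genes in 4 roles: 16 enzymes that build sterols, 6 genes that control the SREBP transcription factors or carry sterol within the cell, 8 genes of fatty acid synthesis, and 5 genes of the LXR receptors and their targets. A probe was taken as a member when its accession belongs to 1 of these genes, which gave 42 of the 34127 probes on the array. Of these, 41 passed the filter on dim probes, and every one of the 35 genes was among the 23484 genes tested.

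RNA from SB cells and RNA from SCt cells were hybridized together on each of 4 arrays. SB cells are SAS tongue squamous carcinoma cells, an established line, that stably carry pLKO.1-LYRIC shRNA-B, a short hairpin RNA against MTDH (also called AEG-1 or LYRIC) delivered by lentivirus. SCt cells are SAS cells that went through the same lentiviral procedure with the control. The control is the pLKO.1 vector in the labels and a scrambled shRNA in the methods of the study. Both kinds of cells were selected for 14 days in puromycin (2 μg/ml), stayed in it afterwards, and gave 15 μg of total RNA per labelling. The red dye was always on SB RNA and the green dye on SCt RNA, with 0 dye swaps, so that the knockdown cannot be told apart from a dye preference of single probes. The labels call the arrays biological replicates but do not say whether the RNA came from separate cultures. If it did not, the SDs and p-values below measure technical spread only. Because 1 shRNA line was set against 1 control line, effects of the shRNA other than loss of AEG-1, and differences between the lines themselves, cannot be told apart from the knockdown.

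All 4 arrays lay on 1 slide. Between 84.7% and 90.3% of the spots were well above background in a channel, 1.89% to 2.71% were marked as outliers by the scanner software and left out, and 0 were saturated. The number of arrays limits the precision. MTDH, the target of the shRNA, had log2 ratios of −3.18, −3.01, −3.12 and −3.41 on arrays 1 to 4, so it was 9.07-fold lower in SB cells (limma adjusted p = 5.19e-10; limma fits a linear model to each probe, and its p-values were adjusted for the false discovery rate over all probes tested). In all, 825 genes passed an adjusted p of 0.05, of which 295 were higher and 530 lower in SB cells. These calls rest on loess, which removes trends of the ratio with brightness on each array; median centring, which only shifts each array to a median of 0, called 4731 genes higher and 2663 lower. All 9 markers of squamous epithelium examined, keratins and TP63 among them, were well above background on all 4 arrays. So were all 4 leukocyte, all 3 endothelial and all 6 adipocyte and hepatocyte markers that have a probe, and 3 of 6 fibroblast markers. The background criterion thus does not tell cell types apart on these arrays. None of these markers passed the test. In bulk RNA, fewer cells of a type and less RNA per cell cannot be told apart.

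Cells make cholesterol from acetyl-CoA through mevalonate, farnesyl diphosphate, squalene and lanosterol, and make fatty acids from the same acetyl-CoA through malonyl-CoA. The genes of both routes are switched on by the SREBP factors, which SREBF1 and SREBF2 encode. SCAP escorts an SREBP from the endoplasmic reticulum to the Golgi, where it is cut and set free to enter the nucleus, and the INSIG proteins hold SCAP back when sterols are plentiful. Oxysterols instead activate the LXR receptors, which raise genes of sterol export and SREBF1 itself. Since INSIG1 and many of the enzymes are themselves SREBP targets, the RNA of the set is a commonly used readout of how active this pathway is.

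Promoter sequences are shown for the members that hold the letters SREBP is known to bind, because the set was chosen around that factor. RefSeq windows ran from 250 bases before to 50 bases after a start site (GRCh38.p14). They were searched for 30 of the 35 members, as 43 windows, since some genes have several start sites. ABCG1, ACAT2, FASN, FDFT1 and SQLE were not searched. For the members, but not for all windows, a chromosome was left out of the search. The motifs were searched on both strands: TCACNCCA, the core of a sterol regulatory element; TCACGTGA, an E-box that SREBP also reads; CCAAT, the NF-Y box; and GGGCGG, the GC box of Sp1. The first can overlap a CCAAT, and no matches to different motifs overlapped in the members' windows. In the lines below, capitals mark TCACNCCA, TCACGTGA and CCAAT or their reverse complements.
INSIG1 promoter, chr7:155297628-155297927, plus strand: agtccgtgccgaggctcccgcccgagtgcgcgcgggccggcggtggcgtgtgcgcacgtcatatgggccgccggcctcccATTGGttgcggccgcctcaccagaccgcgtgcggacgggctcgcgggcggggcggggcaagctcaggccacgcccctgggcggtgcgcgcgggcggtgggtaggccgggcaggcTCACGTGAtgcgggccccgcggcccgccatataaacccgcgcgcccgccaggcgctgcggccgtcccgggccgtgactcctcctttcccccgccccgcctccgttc
MVK promoter, chr12:109573544-109573843, plus strand: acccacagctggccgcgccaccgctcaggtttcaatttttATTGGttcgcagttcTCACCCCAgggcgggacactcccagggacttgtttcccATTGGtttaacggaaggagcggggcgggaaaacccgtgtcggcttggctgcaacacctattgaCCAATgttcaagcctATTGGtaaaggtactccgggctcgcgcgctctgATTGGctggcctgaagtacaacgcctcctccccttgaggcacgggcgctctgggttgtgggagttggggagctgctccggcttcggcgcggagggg
SREBF2 promoter, chr22:41832855-41833154, plus strand: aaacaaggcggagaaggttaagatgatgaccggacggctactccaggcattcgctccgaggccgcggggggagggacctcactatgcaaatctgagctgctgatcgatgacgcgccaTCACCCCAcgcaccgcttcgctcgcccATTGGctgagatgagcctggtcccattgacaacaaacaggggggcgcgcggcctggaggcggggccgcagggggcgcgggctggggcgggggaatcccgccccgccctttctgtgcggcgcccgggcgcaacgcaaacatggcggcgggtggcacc
TCACNCCA was found for MVK, starting at −195 from the start site, and for SREBF2 at −133, and in 3.95% of all 35116 windows. TCACGTGA was found for INSIG1 alone among the members with a window, at −56, and in 0.98% of all windows. CCAAT was in 24 of the 43 member windows, belonging to 21 genes, and in 34.6% of all windows. GGGCGG was in 37 of the 43, belonging to 29 genes, and in 45% of all windows. A match to these letters is a description of the sequence and not evidence of binding. The members with a CCAAT had a median log2 ratio of −0.03, and the 9 without one −0.09; this difference was not tested.

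Each value below is the SB signal over the SCt signal as a log2 ratio on 1 array, or the mean ± SD of the 4 arrays, at the brightest probe of the gene that passed the filter. A log2 ratio of 0 means equal signal, and a negative value means less in SB cells. A number alone in parentheses after a mean ± SD (n = 4 arrays) is the adjusted p of limma. No member passed the threshold of an adjusted p of 0.05 (0 of 35, limma), against 3.51% of all genes tested. At an unadjusted p of 0.05, 5 members passed, which is 14.3% of them, against 18.1% of all genes. Of these, SREBF1, ACACA, FASN and ELOVL6 were on the lower side (11.4% of the members, 8.98% of all genes) and HSD17B7 on the higher side. The log2 ratio had the same sign on all 4 arrays for 8 members, or 22.9%, against 26.1% of all genes. The share of members was below that of all genes in each of these counts but the one of the lower side, where it was 11.4% beside 8.98%.

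The members' means lay between −0.20 (SREBF1) and 0.13 (HSD17B7), with a median of −0.04 beside 0.01 for all genes. The median size of a difference, regardless of sign, was 0.06 for the members and 0.07 for all genes, and their median SD between arrays was 0.13 and 0.11. In all, 14 members had a mean above 0 and 21 below after loess, so 60% were below 0, beside 44.6% of all genes. By role the share below 0 was 50% for the sterol enzymes and 83.3% for the SREBP regulators. It was 87.5% for the fatty acid genes and 20% for the LXR branch. With median centring the median was 0.07 both for the set and for all genes. The members are brighter than most genes, however, and this scaling leaves a trend of the ratio with brightness, described below. In the brightest of 5 bins the members' median was then 0.14, beside 0.21 for all genes. It was below that of all genes in every bin, which was not tested. Without array 1 the median of the set was −0.01 with loess.

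**Figure D1:**
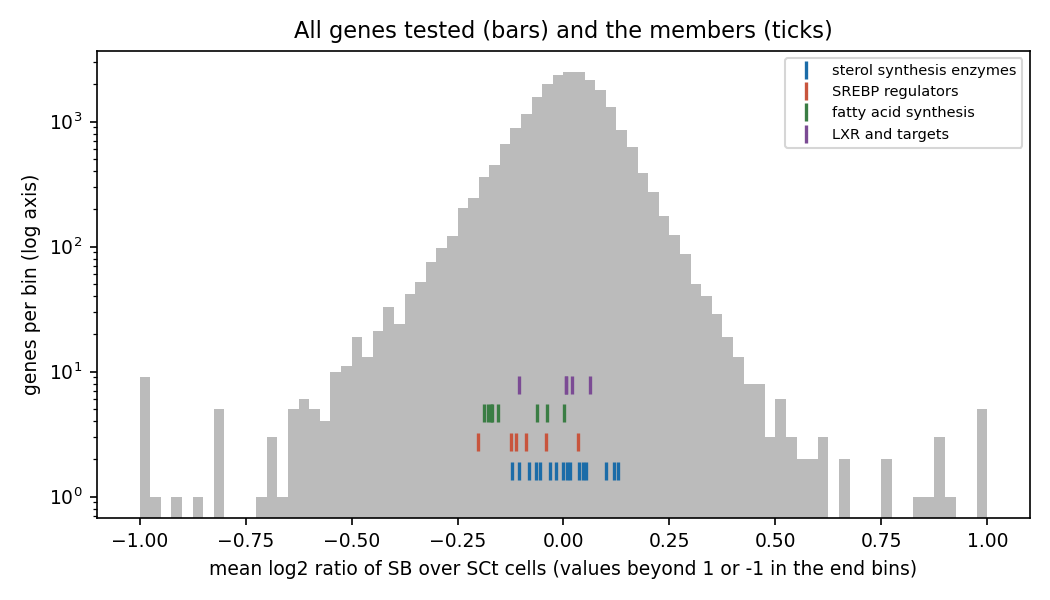
The grey bars count the genes tested by their mean log2 ratio of SB over SCt cells (horizontal axis, bins of log2 ratio; vertical axis, genes per bin on a log scale), and the coloured ticks mark the 35 members in 4 rows by role, at heights that carry no value. Every tick lies between −0.20 and 0.13, within the bulk of the genes. The fatty acid ticks lie mostly left of 0 (median −0.16 with loess). With median centring their median was 0.03, where all genes of like brightness had medians of 0.09 to 0.21.

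The 95% intervals cover the spread between these arrays after loess. They do not cover a dye preference of a probe, the choice of scaling or, if RNA was shared, variation between cultures. All 35 estimates lay within 1.2-fold of no difference, a limit that 835 genes (3.56%) exceeded. The whole interval lay within 1.2-fold for 27 members, within 1.3-fold for 34, and within 1.4-fold for all 35. The narrowest interval was that of CYP51A1, with a half-width of 0.12 on the log2 scale. The widest was that of SCD, at 0.28, and its lower end of 0.733-fold was the lowest in the set. The upper end reached 1.247-fold for ABCA1, the highest in the set. These intervals come from the loess values, and some estimates under other settings lay outside them. MVK had 0.29 with median centring, beyond its upper end of 0.15 on the log2 scale. TM7SF2 had −0.24 with the scanner software's ratios, beyond its lower end of −0.20. No member came near the 2.5-fold limit that the methods of the study set, which 6 of all genes tested exceeded in these loess values. The study itself named more genes past that limit, from its own processing.

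**Figure D2:**
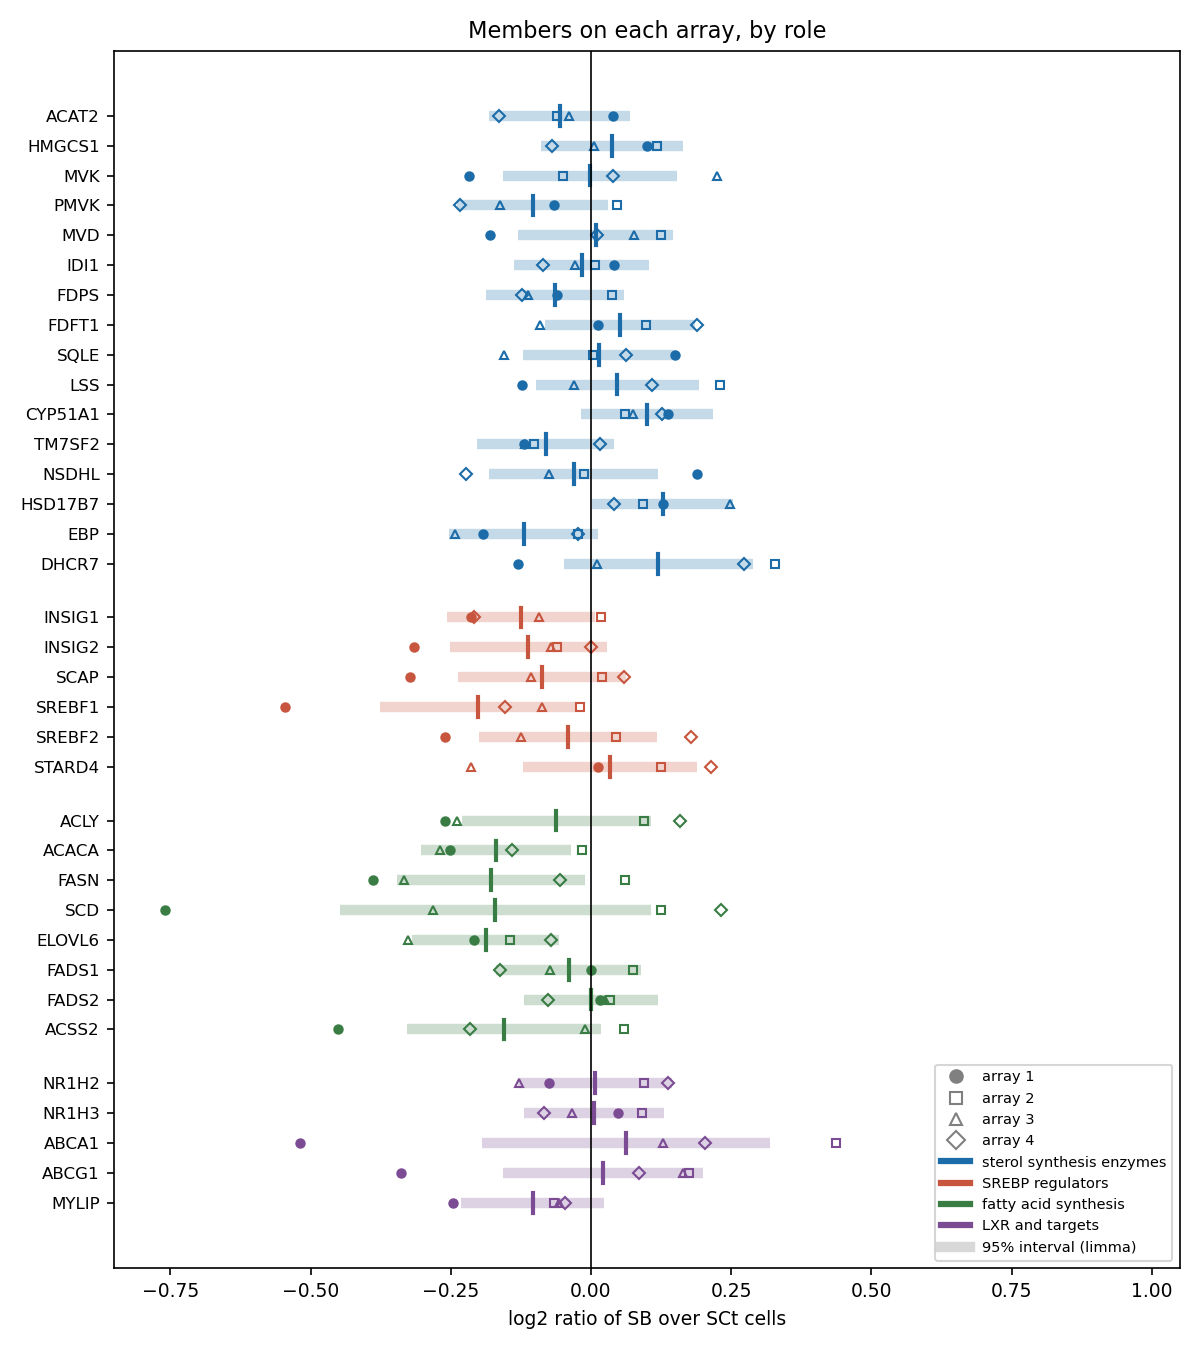
Each row is a member, with 1 symbol for each of the 4 arrays, a vertical tick at the mean and a pale bar for the 95% interval of limma, on a horizontal axis of log2 ratio of SB over SCt cells; colours give the role. All bars but those of HSD17B7, SREBF1, ACACA, FASN and ELOVL6 cross 0, and the symbols of array 1 lie far to the left for SCD, SREBF1, ABCA1 and ACSS2.

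The 16 sterol enzymes had a median log2 ratio of 0.00, with 8 means above 0 and 8 below. With median centring the median was 0.13, beside 0.07 for all genes. That scaling leaves a trend of the ratio with brightness, described below, and most of these enzymes are bright. Over all genes it gave a median of 0.21 in the brightest of 5 bins and 0.12 in the next. On single arrays the loess median of the enzymes was −0.02, 0.04, −0.03 and 0.01, so that as a group they stayed close to 0 on every array. At the top of the route, ACAT2, a thiolase that joins acetyl-CoA units, had −0.06 ± 0.08 (adjusted p = 0.655), and HMGCS1, which makes HMG-CoA, had 0.04 ± 0.09 (0.781). Neither passed the test.

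The next enzymes convert mevalonate to isoprenoid units. MVK, mevalonate kinase, whose promoter above holds TCACNCCA, had ratios of −0.22, −0.05, 0.23 and 0.04 on arrays 1 to 4 and a mean of −0.00 ± 0.18 (95% interval −0.16 to 0.15). Its arrays fell on both sides of 0, although with median centring its mean was 0.29 (adjusted p = 0.0176). PMVK, the kinase that follows, had −0.10 ± 0.12 (0.4). For MVD, the decarboxylase, the mean was 0.01 ± 0.13 (0.962). The isomerase IDI1 and the farnesyl diphosphate synthase FDPS, at −0.02 ± 0.05 (0.908) and −0.06 ± 0.07 (0.59), were among the least variable members. Pseudogenes named after IDI1 (3 in RefSeq) and FDPS (10) could share signal with their probes, so both values are less certain.

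Beyond farnesyl diphosphate, the enzymes of this list serve sterols alone. FDFT1, squalene synthase, had 0.05 ± 0.12 (0.706). SQLE, the epoxidase of squalene, had 0.15, 0.00, −0.16 and 0.06 on arrays 1 to 4, with a mean of 0.02 ± 0.13 (0.926). LSS, which closes the ring to lanosterol, had 0.05 ± 0.16 (0.762). The arrays of all 3 genes lay on both sides of 0.

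CYP51A1, which removes a methyl group from lanosterol, was the most even of the members: its ratios were 0.14, 0.06, 0.08 and 0.13, all above 0, with a mean of 0.10 ± 0.04. This difference did not pass the test (adjusted p = 0.354), and 3 pseudogenes carry its name. HSD17B7, a keto reductase of the same stretch of the pathway, had 0.13, 0.09, 0.25 and 0.04 on arrays 1 to 4 and the highest mean of the set, 0.13 ± 0.09 (unadjusted p = 0.0479, adjusted p = 0.262, limma). Its other probes had 0.19 ± 0.07 and 0.11 ± 0.09, with adjusted p of 0.0947 and 0.333, so that 3 probes gave means on the higher side and none passed the threshold. RefSeq lists 2 pseudogenes of HSD17B7.

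Of the remaining sterol enzymes, DHCR7, the reductase that finishes cholesterol on one of its routes, varied most. Its arrays gave −0.13, 0.33, 0.01 and 0.27, and its mean of 0.12 ± 0.22 was within that spread (0.436). EBP, a sterol isomerase, had −0.19, −0.02, −0.24 and −0.02, all below 0, with a mean of −0.12 ± 0.11 (0.318). TM7SF2, a sterol reductase read by 10 spots per array, had −0.08 ± 0.07 (0.481). Its probe is dim, and the mean depended on the background treatment. It was −0.15 with an offset of 0 in the background correction and −0.24 with the scanner software's ratios. NSDHL, a dehydrogenase that acts in the removal of methyl groups, had −0.03 ± 0.17 (0.858).

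The 6 genes that control SREBP or carry sterol had a median of −0.10 with loess and 0.02 with median centring. In the brightness bins that hold these genes, described below, the medians over all genes with median centring were 0.09, 0.12 and 0.21. Without array 1 the loess median was −0.03. After loess 5 means were below 0, and none passed the test. Array 1 stood apart in this group: its median was −0.29, against 0.02, −0.10 and 0.03 on the other arrays. SREBF1, which encodes SREBP-1, the form that acts mainly on fatty acid genes, had the lowest mean of the set. Its ratios were −0.54, −0.02, −0.09 and −0.15 on arrays 1 to 4, with a mean of −0.20 ± 0.24 (95% interval −0.38 to −0.03; unadjusted p = 0.028, adjusted p = 0.201, limma). All arrays were on the lower side, but by very unequal amounts, and without array 1 the mean was −0.09 (adjusted p = 0.535). A further SREBF1 probe gave −0.77, −0.14, −0.26 and 0.00, with a mean of −0.29 ± 0.33 (0.14), and again array 1 was the lowest.

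SREBF2 encodes SREBP-2, which acts mainly on sterol genes. Its ratios were −0.26, 0.04, −0.12 and 0.18, with a mean of −0.04 ± 0.19 (0.817), and its arrays lay on both sides of 0. SCAP, the escort protein, had −0.32, 0.02, −0.11 and 0.06 and a mean of −0.09 ± 0.17 (0.544). The first of its arrays lay farthest from 0.

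INSIG1, the inhibitor whose promoter above carries the SREBP E-box, had ratios of −0.21, 0.02, −0.09 and −0.21 on arrays 1 to 4. The mean was −0.12 ± 0.11 (95% interval −0.26 to 0.01, adjusted p = 0.295), with 3 arrays on the lower side. INSIG2, the related inhibitor, had −0.32, −0.06, −0.07 and −0.00, with a mean of −0.11 ± 0.14 (0.382), and its other probe had a mean of −0.13 ± 0.16 (0.329). STARD4, which carries cholesterol between membranes and is a known SREBP-2 target, had 0.01, 0.13, −0.21 and 0.21 and a mean of 0.03 ± 0.18 (0.845). Its order of arrays differed from that of the genes above, with array 3 the lowest.

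The 8 genes of fatty acid synthesis had the lowest median of the roles, −0.16 with loess, and 7 means were below 0. With the mean over each gene's probes their median was −0.11, beside −0.10 for the SREBP regulators. ACACA, whose probes differ in sign, then had −0.004. With median centring the median of the 8 genes was 0.03, beside 0.07 for all genes. Median centring leaves a trend of the ratio with brightness, however. In the brightness bins that hold these genes, described below, the medians over all genes were then 0.09, 0.12 and 0.21. Each of the 8 lay below the median of its bin, which was not tested. Without array 1 the loess median was −0.05. On single arrays the median was −0.26, 0.06, −0.25 and −0.07, an SD of 0.15 between arrays, so it was low on arrays 1 and 3 and not on array 2. No gene of the group passed the adjusted threshold, beside 3.51% of all genes. At an unadjusted p of 0.05, 3 of the 8 passed, beside 18.1% of all genes. ACACA is among them, although its other probe lay on the higher side.

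**Figure D3:**
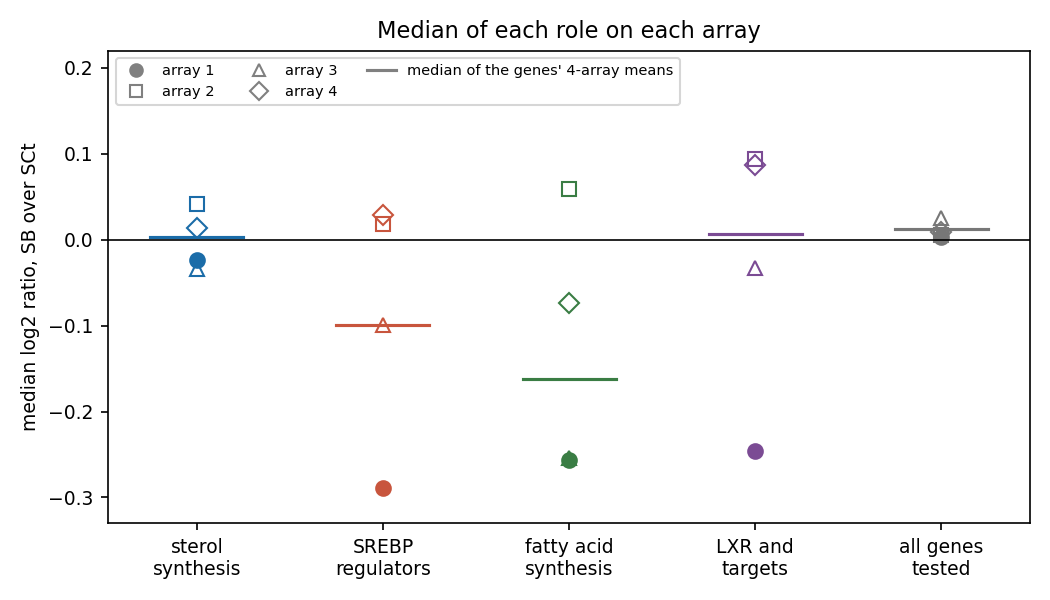
The median log2 ratio of SB over SCt cells (vertical axis) is plotted for each role and for all genes tested (horizontal axis), with a symbol for each of the 4 arrays and a line at the median of the genes' means over the arrays, all after loess. The fatty acid genes spread from −0.26 to 0.06 over the arrays and the sterol enzymes only from −0.03 to 0.04. The line of the fatty acid genes lies at −0.16 here. It would lie at 0.03 with median centring, which leaves a trend of the ratio with brightness.

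ACSS2 and ACLY supply acetyl-CoA, from acetate and from citrate. ACSS2 had −0.45, 0.06, −0.01 and −0.21, with a mean of −0.15 ± 0.23 (0.323), and ACLY had −0.26, 0.09, −0.24 and 0.16, with −0.06 ± 0.22 (0.727). Both had arrays on either side of 0.

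ACACA is acetyl-CoA carboxylase, the committed step to fatty acids. Its brighter probe had −0.25, −0.02, −0.27 and −0.14 on arrays 1 to 4, all below 0, with a mean of −0.17 ± 0.12 (unadjusted p = 0.0172, adjusted p = 0.157, limma). Its other probe had −0.04, 0.10, 0.29 and 0.29 and a mean of 0.16 ± 0.16 (0.219). The 2 probes thus gave means of opposite sign, and neither passed the threshold, so no direction can be given for ACACA.

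FASN, fatty acid synthase, had −0.39, 0.06, −0.33 and −0.05, with a mean of −0.18 ± 0.22 (unadjusted p = 0.0383, adjusted p = 0.234, limma). Array 2 was on the other side of 0. With median centring the mean was 0.10, beside a median of 0.21 over all genes in its brightness bin. ELOVL6, which lengthens the product of FASN, had −0.21, −0.14, −0.33 and −0.07 on arrays 1 to 4. With all arrays below 0 and a mean of −0.19 ± 0.11 (95% interval −0.32 to −0.06), it had the smallest p of the set: 0.00902 unadjusted and 0.114 adjusted (limma). Without array 4 its mean was −0.23 and the adjusted p 0.0453, and with median centring the mean was −0.08.

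SCD, the desaturase that makes oleic acid, was the most variable member. Its ratios were −0.76, 0.13, −0.28 and 0.23 on arrays 1 to 4, from the lowest value at any brightest probe of the set to a value well above 0, with a mean of −0.17 ± 0.45 (0.515). The mean depended on which arrays were included: it was 0.03 without array 1 (adjusted p = 0.915) and −0.31 without array 4 (adjusted p = 0.0323). RefSeq lists 1 pseudogene of SCD. The desaturases of polyunsaturated fatty acids gave no such spread, FADS1 having −0.04 ± 0.10 (0.776) and FADS2 0.00 ± 0.05 (0.999).

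The 5 genes of the LXR branch had a median of 0.01 with loess and −0.01 with median centring, and 4 means were above 0 and 1 below after loess. NR1H3, which encodes LXR alpha, had 0.05, 0.09, −0.03 and −0.08 on arrays 1 to 4 and a mean of 0.01 ± 0.08 (0.973). NR1H2, which encodes LXR beta, had −0.07, 0.09, −0.13 and 0.14 and 0.01 ± 0.13 (0.968). For both receptors the arrays were split evenly about 0.

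ABCA1, which exports cholesterol to apolipoproteins, had −0.52, 0.44, 0.13 and 0.20, with a mean of 0.06 ± 0.41 (95% interval −0.19 to 0.32; 0.828). Its other probe had −0.21, 0.17, 0.21 and 0.28, with a mean of 0.11 ± 0.22 (0.47). At both probes array 1 was the only one below 0, and without array 1 the mean of the brighter probe was 0.26 (adjusted p = 0.113). ABCG1, a further exporter, had −0.34, 0.17, 0.16 and 0.09, again with array 1 the only one below 0, and a mean of 0.02 ± 0.24 (0.921). MYLIP, an LXR target that marks lipoprotein receptors for breakdown, had −0.25, −0.07, −0.06 and −0.05, with −0.10 ± 0.09 (0.375).

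Across the set, array 1 gave the lowest ratio of the 4 for 17 of the 35 members, array 2 for 1, array 3 for 7 and array 4 for 10. Over all genes the shares were 26.7%, 20.9%, 24.7% and 27.7%. The SD of the members on array 1 was 0.22, beside 0.17 for all genes, whereas on the other arrays the members varied less than all genes did (0.11 to 0.15 against 0.14 to 0.21). The members share the array, so this is a description of the arrays and not a replicated finding. Whether array 1 came from a different culture or extract cannot be told from the labels.

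**Figure D4:**
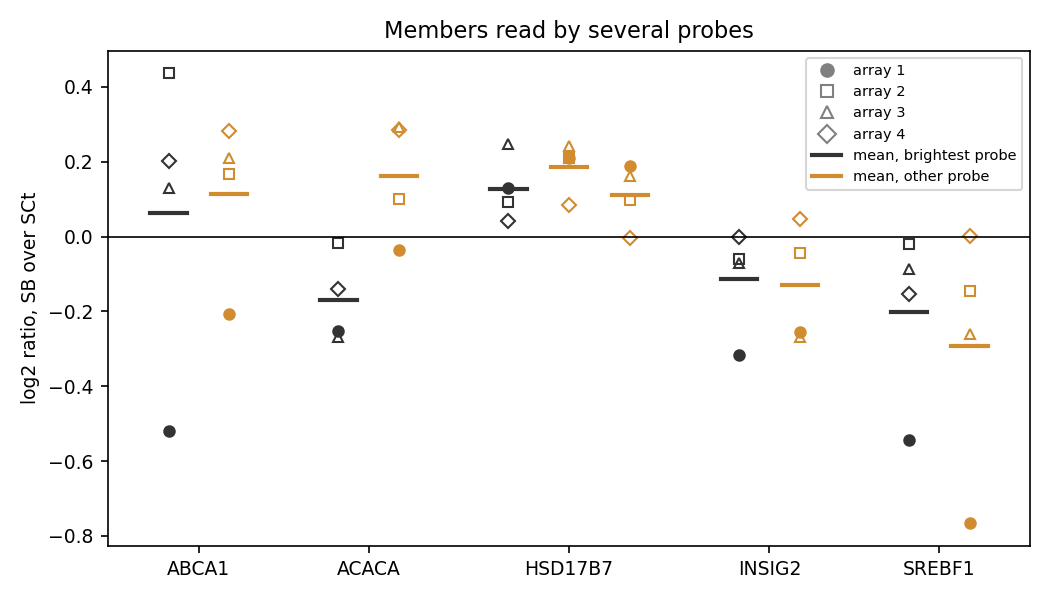
The 5 members with several probes past the filter are shown with their log2 ratio (vertical axis, SB over SCt cells) on each of 4 arrays; black marks the brightest probe, orange the others, and horizontal lines are means. The probes of ABCA1, HSD17B7, INSIG2 and SREBF1 have means of the same sign, and those of ACACA do not (−0.17 and 0.16).

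Genes of the same pathways outside the set were listed as well, 43 in all, of which 39 were tested. GGPS1, IDI2, SOAT2 and RXRB did not pass the filter on dim probes. The 39 had a median log2 ratio of −0.04, the same as that of the members to this precision. Of them, 2 passed the adjusted threshold, beside 3.51% of all genes tested. SCD5, a desaturase related to SCD, was higher, with 0.44, 0.27, 0.21 and 0.11 and a mean of 0.26 ± 0.14 (adjusted p = 0.0485, limma). That call held in 5 of 16 alternative settings, which are described below. Among these 5, Aquantile, no filter and the filter on both channels left its ratios unchanged. The rest were median centring, which called 31.5% of all genes, and leaving out array 4. The other 3 probes of SCD5 had means of 0.04, 0.23 and 0.04.

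By branch, 0 of 8 genes of the sterol pathway passed (median 0.07), 0 of 7 genes of SREBP processing (−0.01), and 1 of 18 genes of the fatty acid pathway (−0.10), which was SCD5. At an unadjusted p of 0.05, 10 of the 39 passed, beside 18.1% of all genes. Closest to the adjusted threshold without passing it was TMEM97, a sterol-regulated membrane protein. It had 0.31, 0.25, 0.08 and 0.22 and a mean of 0.21 ± 0.10 (0.0696). Next were ERLIN2, higher at 0.21 ± 0.12 (0.0926), and HSD17B12, lower at −0.20 ± 0.12 (0.097). SOAT1 and SC5D, of the same list as TMEM97, were on the lower side (unadjusted p = 0.0187 and 0.0284, limma). MSMO1, also of that list, was on the higher side at 0.15 (unadjusted p = 0.0243, limma). So were UBE2G2 at 0.15 and ELOVL7 at 0.13, from other lists (unadjusted p = 0.0197 and 0.0385, limma).

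Of the choices tried, the scaling of the arrays changed the count of members called the most. Without loess, the ratio of SB over SCt increased with the brightness of a probe: with median centring alone, the median over all genes was −0.19 in the dimmest of 5 equal bins of genes and 0.21 in the brightest. With loess it lay between −0.00 and 0.02 in each bin. The members sit toward the bright end, with 2, 3, 7, 10 and 13 of them in the bins from dim to bright. Under median centring 7 members passed the adjusted threshold, 6 higher (MVK, FDFT1, SQLE, CYP51A1, HSD17B7 and DHCR7) and 1 lower (TM7SF2), against 31.5% of all genes. The 6 lie in the 2 brightest bins and had 0.20 to 0.29, beside medians over all genes of 0.12 and 0.21 in those bins. TM7SF2, in the dimmest bin, had −0.34 beside −0.19.

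**Figure D5:**
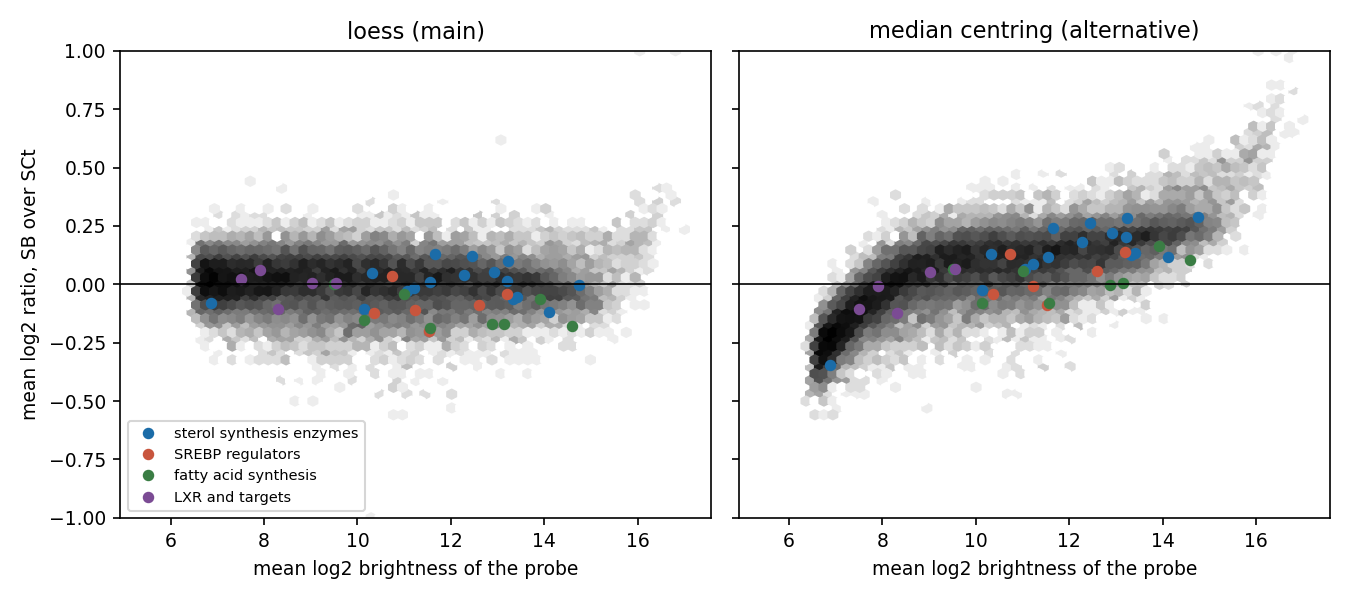
The mean log2 ratio of SB over SCt cells (vertical axis, values beyond 1 or −1 drawn at the edge) is plotted against the mean log2 brightness of the probe (horizontal axis), with loess on the left and median centring on the right; grey cells show the density of all genes on a log scale and coloured points the members. The cloud is level with loess and climbs from −0.19 in the dimmest of 5 bins to 0.21 in the brightest with median centring. The members climb with it, at a median below that of all genes in each bin.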

How the data were processed

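For each array, the authors deposited the output of the scanner software (Agilent Feature Extraction 10.5.1.1, per the submitters' processing notes), with median intensities of red and green per spot and of the local background on a linear scale, not normalized. The same deposited files hold the software's log10 ratio of red over green as corrected for background and dye by that software. A further deposited table covers the series on a log2 scale, SB over SCt. Of its 34127 probes per array, 99.1% to 99.3% lay within 0.01 of the log2 ratio of the software's processed intensities, averaged over a probe's spots. The correlation with the mean over the spots of their log2 ratios of these intensities was 0.9998 to 0.9999. This settles the table's scale and direction, and its column medians were −0.0165 to 0.0220.

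Intensities were analysed with limma 3.58.1 (R 4.3.3). Background was corrected by normexp (offset 50) on all 44495 spots. Loess was run within each array, the 1377 control spots and the outlier spots having a weight of 0, and the spots of a probe were averaged. Kept were probes for which 1 channel was well above background on each of the 4 arrays, given values on at least 2 arrays (28505 of 34127). The log2 ratio was set against 0 in a model with only an intercept (lmFit, eBayes), with Benjamini-Hochberg adjustment over all kept probes and a threshold of 0.05. A gene is given by its brightest kept probe. Probes were named by accession from RefSeq's gene table (GRCh38.p14): 24826 matched and 9301 did not. No gene positions are given, since the array was designed on another build.

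All members are named with mean and SD. Array values were to be given for SREBF1, SREBF2, SCAP, INSIG1, INSIG2, NR1H2, NR1H3 and members past the threshold. Those of other members and TMEM97 were chosen after the values were seen, as was the naming of ERLIN2, HSD17B12, SOAT1, SC5D, MSMO1, UBE2G2 and ELOVL7. The members and lists were chosen with earlier results of these data known. The steps were tested on simulated arrays. As alternatives, the series table or the software's ratios replaced the values. Further ones were median centring, no background subtraction, an offset of 0, Aquantile, inclusion of outlier spots, no filter, a filter that both channels had to pass, robust eBayes with a trend, the methods' t-test (a plain test of the same values), the mean over a gene's probes and each array left out. Medians by role, counts at an unadjusted p and calls at any kept probe were added after seeing the data. The planned main setting named mean or median intensities, and the median ones were used. The result of 1 of the other pathway genes past the threshold is not reported here.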

Additional observations from a re-analysis of the deposited data

Results flagged for a closer look

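In 4 of 36 genes examined (the 35 members and MTDH), 1 array lay apart from the other 3, in that its gap to the nearest array was a large part of the whole range, above the critical value of Dixon's test. Chance alone marks about 5% of such groups, and genes on 1 array are not independent. For MYLIP the gap was 0.898 of the range and the array was array 1, with −0.25, −0.07, −0.06 and −0.05 on arrays 1 to 4; without array 1 the mean was −0.06 in place of −0.10. For ABCG1 it was 0.8294, again array 1, and the mean without it was 0.14 in place of 0.02 (adjusted p = 0.294, limma). For TM7SF2 it was 0.872, with array 4 at 0.02 and the other arrays at −0.12, −0.10 and −0.12; without array 4 the mean was −0.11 in place of −0.08. For FADS2 it was 0.838, with array 4 at −0.08 and the others between 0.02 and 0.03, and a mean of 0.03 without it. No member among these passed the threshold with or without the array that lay apart, and the cause was not tested.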

How the results depend on the processing

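All 4 arrays share 1 slide and 1 dye orientation, so neither could be a block. The ratio within each array already pairs both kinds of cells, so no further pairing was added. Aquantile leaves the ratios unchanged by construction. The count of 0 members past an adjusted p of 0.05 (limma; 5 at an unadjusted p) held under every setting tried but median centring and leaving out array 4. Elsewhere the smallest adjusted p of a member lay between 0.11 and 0.36. In those settings 2 to 6 of the 35 members passed an unadjusted p, beside 12.9% to 18.6% of all genes. Median centring gave 7 members, 6 higher and 1 lower, a median over the members of 0.0671 in place of −0.04 (over all genes 0.0693 in place of 0.01), and 10 of the other pathway genes. It also turned MVK from −0.00 to 0.29. The leave-one-out fits gave 0 to 2 members, 0 higher and 0 to 2 lower, the 2 being SCD and ELOVL6 without array 4. The methods' t-test gave 0 members, with 2 at an unadjusted p, 0 genes of all, with 13.7% at an unadjusted p, and 0 of the other pathway genes; MTDH kept its −3.18 but had an adjusted p of 0.143. The other pathway genes past the threshold, 2 in the main setting, came to 1 with the software's ratios, the series table, no background subtraction, an offset of 0, outlier spots kept, the trend and robust options, and the mean over probes. Leaving out an array gave 1 to 3 of them, 1 each without arrays 1, 2 and 3 and 3 without array 4. The count of all genes past the threshold, 825, moved to 572 with the software's ratios, 529 in the series table, 7394 with median centring and 445 with the trend and robust options. Without an array it was 156 (array 3), 339 (array 2), 496 (array 1) and 1556 (array 4). Of 560 values of single genes under the alternatives, 8 came to pass the threshold with the same sign, 1 reversed, and 45 had another sign with neither value past the threshold. Other causes were not tested.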
